A study of Mus musculus with 4 samples.

Results

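Neat1 and Malat1 are 2 long noncoding RNAs of the nucleus, and their binding by DDX5, a DEAD-box RNA helicase, is described here from a list of enhanced crosslinking and immunoprecipitation (eCLIP) peaks. All peaks that the authors' gene name column assigns to either RNA were taken, which gave 13 peaks for Neat1 and 12 for Malat1, or 25 of the 900 peaks in the list. The cells were Th17 cells, the helper T cells that make interleukin-17, grown from naive CD4 T cells of female wild type C57BL/6 mice. The culture lasted 72 h and contained IL6, TGFb and antibodies against CD3 and CD28. The culture protocol gives an age of 8 weeks, whereas the design text gives 8 to 10 weeks and 2 mice, without saying whether each replicate was 1 mouse. There were 2 DDX5 immunoprecipitates (IP) and 2 inputs, the inputs being the same wild type cells with no antibody, and no group lacked DDX5. In eCLIP, ultraviolet light links a protein to the RNA it touches, the RNA is trimmed with RNase, and fragments that come down with the protein are sequenced and compared with input.

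For every peak the authors give a single log2 value of IP over input (its enrichment) and a single −log10 p, both made from the 2 replicates together. No spread between replicates can therefore be given, every SD below is over peaks, and peaks of 1 RNA are not replicates of each other. No test between the 2 RNAs was run for this reason. The list holds no level of any RNA and no read depth, so the cell type could not be checked by expression. Among Th17 genes, Rora had 5 peaks and Ahr had 1, while Il17a and Il17f had 0, which does not measure their expression.

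Neat1 is the scaffold of paraspeckles, nuclear bodies that hold RNA-binding proteins such as NONO and SFPQ. It is made as a short polyadenylated form and a long form that begin at the same 5′ end, and the long form is the one that builds the paraspeckle. Malat1 is an abundant RNA of nuclear speckles, bodies rich in splicing factors. Its 3′ end is cut to release a small tRNA-like RNA, named Mascrna in RefSeq, and the RNA is retained in the nucleus. DDX5 unwinds RNA duplexes and takes part in transcription, splicing and microRNA processing.

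The genes lie side by side on the minus strand of chromosome 19 (mm10). The longest annotated Malat1 transcript, an unspliced lincRNA, spans 5795690 to 5802672 (6983 nt), and the longest Neat1 transcript spans 5824708 to 5845478 (20771 nt). The 22035 nt between them held 0 peaks, and 0 peaks lay on the plus strand of either gene. Frmd8, the protein-coding gene on the other side of Neat1, had 0 peaks as well. All 25 peaks were classed as noncoding exon by the authors, and they make up 22.5% of the 111 peaks of that class. The transcript that the list names beside a peak often does not contain it. Within the span of the named transcript lay 4 of 13 Neat1 peaks and 3 of 12 Malat1 peaks, and within its exons 3 and 2. Positions below are therefore counted from 1 at the 5′ end of the longest transcript.

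Neat1 carried most of its peaks in its 5′ part, and most were high within the list. The mean log2 enrichment was 6.11 ± 0.86 (SD over 13 peaks), the median was 6.25 (76.2-fold), and values ran from 4.41 (21.2-fold) to 7.19 (146-fold). Of the 13 peaks, 10 were above the upper quartile of all 900 peaks (5.84) and 1 was below the lower quartile (4.64). Peaks were 48 to 105 nt wide and covered 837 nt, or 4.03% of the RNA. When peaks up to 10 nt apart were joined, they formed 12 sites, because only the pair at the 5′ end touched.

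The short form was taken from the annotated transcript ENSMUST00000174287.1, which begins 2 nt inside the 5′ end of Neat1 (up to 10 nt was allowed) and ends at 5842307. The stretch up to that 3′ end, the first 3172 nt (15.3% of the long form), was used as the part shared by both forms, although the 2 listed exons of this transcript leave out 166 nt of it (positions 555 to 720). This stretch held 10 of the 13 peaks (76.9%, exact Clopper-Pearson 95% interval 46.2 to 95.0, counting error only), in 9 sites. The interval treats peaks as independent, which neighbouring peaks of 1 RNA are not, and it holds no spread between replicates. The shared stretch had 3.15 peaks per kb against 0.170 per kb in the remaining 17599 nt, and peaks covered 20.1% of it against 1.13% of the rest. With the 166 nt left out, all 10 peaks lay within the listed exons, at 3.33 peaks per kb. Reads from the shared stretch can come from either form, so these 10 peaks cannot be assigned to one of them. The other 3 peaks lie in sequence of the long form alone. The median enrichment was 6.29 in the shared stretch and 6.13 beyond it, where the 3 values ran from 4.41 to 7.01.

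At the very 5′ end of Neat1, a pair of touching peaks ran from position 16 to 149 (5845330 to 5845463), with log2 enrichments of 4.91 and 5.02. They were among the 3 lowest of Neat1, although the first had its highest −log10 p, 53.7. After 600 nt without a peak, 8 single peaks followed between positions 750 and 2413. In 5′ to 3′ order, the first 4 began at positions 750, 920, 1179 and 1255. Their log2 enrichments were 5.94, 6.93, 6.33 and 6.64. The next 4 began at 1795, 1910, 2049 and 2354. Their log2 enrichments were 6.25, 6.62, 7.19 and 6.08. All 8 exceeded the 5′ pair. The highest, at positions 2049 to 2153 (5843326 to 5843430), was also the widest Neat1 peak, with 105 nt and a −log10 p of 49.9. Gaps between the 9 sites of the shared stretch ran from 23 to 600 nt, with a median of 144.5 nt. The last 759 nt of the short form held no peak.

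Beyond the short form, the Neat1 peak at positions 4608 to 4660 (5840819 to 5840871) had a log2 enrichment of 7.01 (129-fold, −log10 p 31.3), which only the 2049 to 2153 peak exceeded within this RNA. The peak at 6256 to 6321 (5839158 to 5839223) had 6.13 with the lowest −log10 p of the RNA, 8.32. Then 14328 nt, 69.0% of the RNA, held no peak. The last peak, at 20650 to 20729 (5824750 to 5824829), ended 42 nt before the annotated 3′ end. It had the lowest enrichment of Neat1, 4.41 (−log10 p 12.3). The 3 lowest values were thus the ones nearest the 2 ends of the RNA, and the 10 peaks between them had a mean of 6.51 ± 0.43 (SD), a split made after the values were seen. Binding in a stretch without a listed peak is not excluded by this list, since coverage of the long form in IP and input was not in the files used here.

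**Figure D1:**
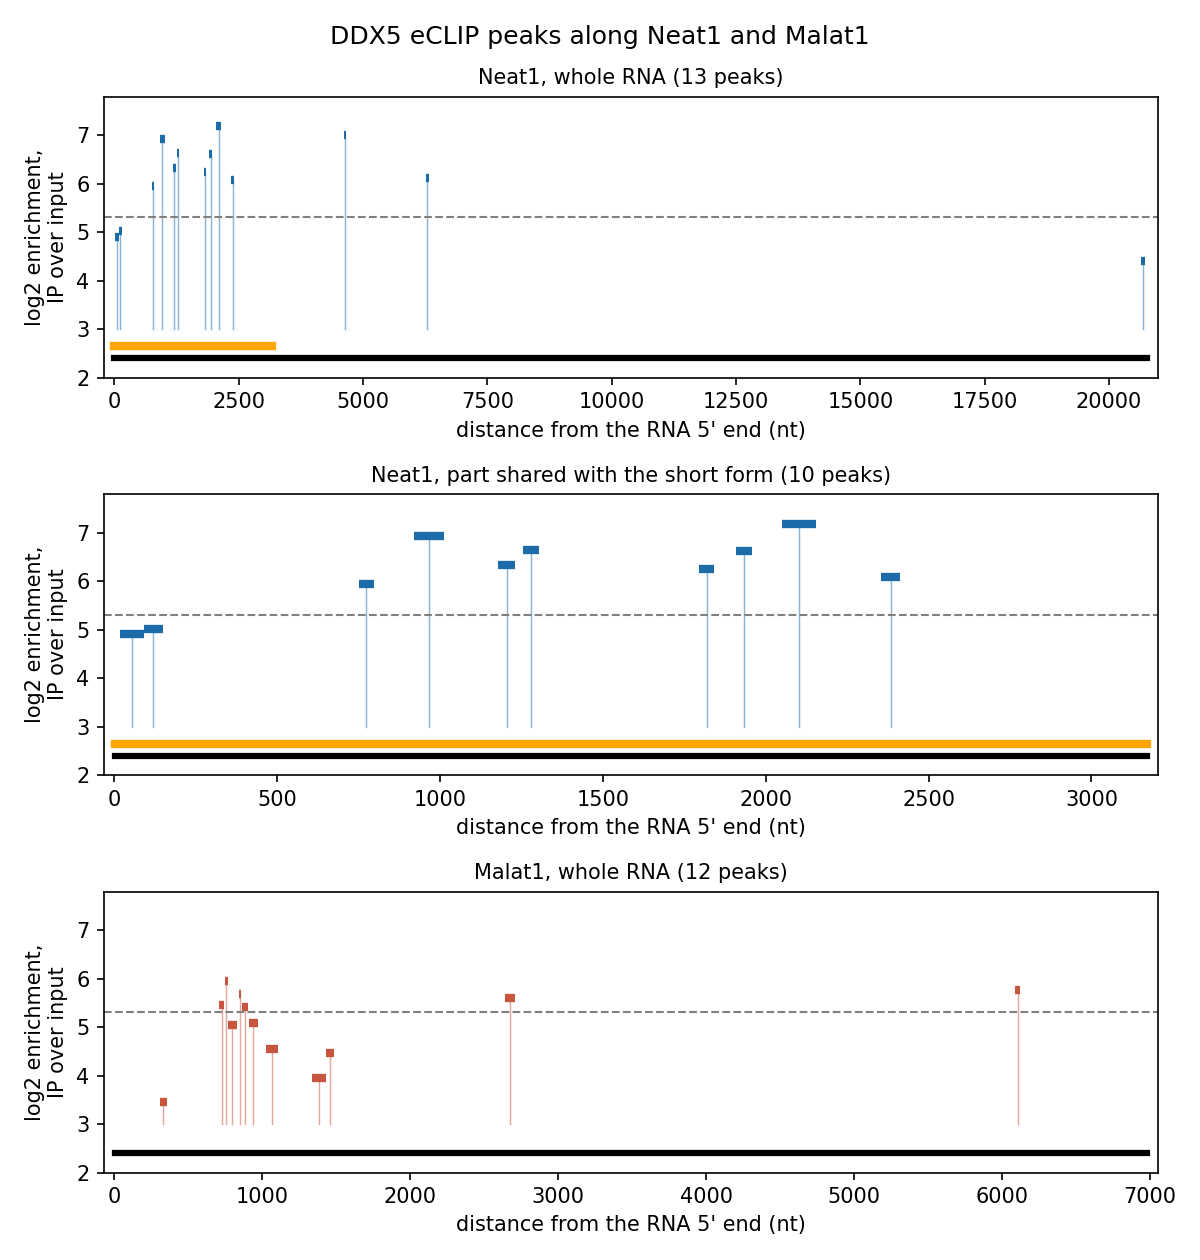
Horizontal bars are DDX5 peaks drawn at their width, with log2 enrichment of IP over input on the y axis and distance from the RNA 5′ end in nt on the x axis; thin lines drop to the authors' minimum of 3, the dashed line is the median of all 900 peaks (5.31), the black bar is the RNA and the orange bar the part of Neat1 shared with its short form. Of 13 Neat1 peaks, 10 lie over the orange bar, and of 12 Malat1 peaks, 10 lie in the first 1500 nt. These 10 Malat1 peaks make up sites 1 to 4 of 6 when peaks up to 10 nt apart are joined.

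Malat1 peaks also lay mostly near the 5′ end, with lower enrichment than those of Neat1 and in fewer sites. The mean log2 enrichment was 5.04 ± 0.78 (SD over 12 peaks), the median 5.25 (38.2-fold), and values ran from 3.46 (11-fold) to 5.95 (61.9-fold). Of the 12 peaks, 6 were above the median of all peaks, 1 was above the upper quartile and 4 were below the lower quartile. Midpoints of 10 of the 12 lay within the first 1500 nt, and these 10 make up sites 1 to 4 of the 6 joined sites. In relative terms, 10 Malat1 peaks lay in the first 25% of the RNA and 1 of them in the first 10%, against 11 and 8 Neat1 peaks. Per length, Malat1 had 1.72 peaks per kb and Neat1 0.626, and 9.15% of Malat1 was covered. Peaks per kb count each piece of a joined site separately. When peaks up to 10 nt apart were joined, the 12 Malat1 peaks formed 6 sites and the 13 Neat1 peaks 12. Part of the contrast in peaks per kb thus reflects how the list splits stretches.

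The 5′-most Malat1 peak, at positions 310 to 353 (5802320 to 5802363), had the lowest enrichment of both RNAs, 3.46 (−log10 p 23.3). The main site followed at positions 709 to 972 (5801701 to 5801964). Its 264 nt, 3.78% of the RNA, held 6 pieces separated by 0 to 8 nt, so the list splits 1 nearly continuous stretch into 6 entries. From 5′ to 3′, the first 3 pieces had log2 enrichments of 5.47, 5.95 and 5.05. The next 3 had 5.68, 5.41 and 5.10. The narrow pieces of 20 and 21 nt stood highest, and the 2 pieces of 66 nt lowest. Of the 6 pieces, 3 reached 400, the highest −log10 p in the list, which acts as a ceiling. No Malat1 peak outside this site and no Neat1 peak reached it, and 8% of all peaks did.

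Downstream of the main site, Malat1 peaks were first lower and then, at 2 isolated places, as high as within it. The peak at 1024 to 1105 (5801568 to 5801649) had a log2 enrichment of 4.55, and a touching pair at 1334 to 1488 (5801185 to 5801339) had 3.95 and 4.46. A single peak at 2639 to 2710 (5799963 to 5800034) reached 5.60 with a −log10 p of 72.1. Then 3380 nt, 48.4% of the RNA, held no peak. The last one, at 6091 to 6121 (5796552 to 5796582), reached 5.76 with the lowest −log10 p of Malat1, 12.2. It lay 570 nt upstream of Mascrna (5795924 to 5795981), which itself held 0 peaks. The 6 pieces of the main site had a mean of 5.44 ± 0.34 (SD), and the 6 peaks outside it 4.63 ± 0.90, with overlapping ranges of 5.05 to 5.95 and 3.46 to 5.76.

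Among the annotated isoforms other than the longest, 4 gaps between listed exons could be set against the peaks. The next peak began 2, 29, 59 and 134 nt after them. The annotation used here holds only features that touch a peak, so exon chains may be incomplete. Every listed exon therefore touches a peak by construction. For this reason, these distances cannot show whether peaks lie near splice junctions. In the Malat1 transcript ENSMUST00000173499.1, the 271 nt between 2 listed exons (positions 436 to 706) held no peak, and the main site began 2 nt after the downstream exon starts. The gap of 42 nt (608 to 649) in ENSMUST00000173523.1, also of Malat1, held no peak and lay 59 nt before the same site. The 166 nt left out of the short form of Neat1 held no peak either, and the next Neat1 peak began 29 nt after them. In contrast, the Neat1 peak at 920 to 1011 lay wholly inside a gap of 143 nt (902 to 1044) of ENSMUST00000174829.1, and the next peak began 134 nt after that gap. The Malat1 peak at 6091 to 6121 likewise lay inside a listed intron of ENSMUST00000173314.1 (5795786 to 5797003). That transcript has no listed exon, so its intron is not among the 4 gaps. Every one of these stretches is exonic in the unspliced main transcript, and how much of each isoform the cells made was not measured. A pair of small annotated genes lies within Neat1. Gm27505 contains all 48 nt of the Neat1 peak at positions 750 to 797, and Gm27533 shares 15 nt with the one at 1179 to 1231. Both are annotated as misc_RNA on the same strand, so their reads and those of Neat1 cannot be told apart.

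Set side by side, the mean of Neat1 was higher by 1.07 on the log2 scale (2.11-fold). The ranges overlapped, but 9 of 13 Neat1 peaks stood above the highest Malat1 peak and 2 Malat1 peaks stood below the lowest Neat1 peak. The −log10 p went the other way, with a median of 24.8 for Neat1 and 53.1 for Malat1, and 5 of 12 Malat1 peaks had a value above the highest of Neat1, 53.7. A p of this kind depends on the number of reads as well as on the fold. The read numbers were not in the files used here, so their part in this contrast was not tested.

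**Figure D2:**
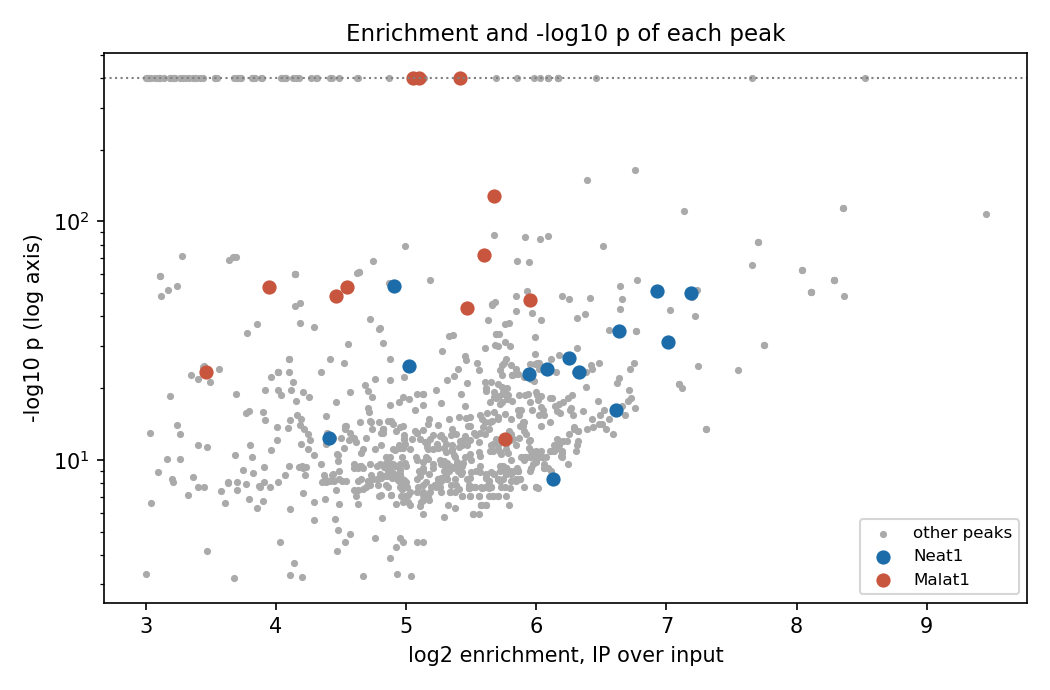
Each point is 1 peak, with log2 enrichment of IP over input on the x axis and −log10 p on a log y axis; the dotted line marks the ceiling of 400. Neat1 peaks (blue) reach 7.19 in enrichment but at most 53.7 in −log10 p, whereas 3 Malat1 peaks (red) at 5.05 to 5.41 lie on the ceiling.

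The medians of both RNAs were above that of the other noncoding exon peaks of the list. The 86 others had a median log2 enrichment of 3.88, or 4.29 in the 49 left without Gm26917 and Gm42418, genes with 32 and 5 peaks that all lie at the ceiling. Of the 86, 3 were above the Neat1 median and 12 above the Malat1 median, and the same counts held for the 49. Peaks outside noncoding exons had a median of 5.38 (789 peaks), which is below that of Neat1 and above that of Malat1. These differences are descriptions of peaks and were not tested. Xist, which coats the inactive X chromosome, had a median of 5.26, close to the 5.25 of Malat1. It gave 4 peaks over a locus of 22712 nt, 3 of them between positions 1097 and 1588 with log2 enrichments of 5.07 to 5.97 and the fourth at 13426 to 13492 with 4.69.

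**Figure D3:**
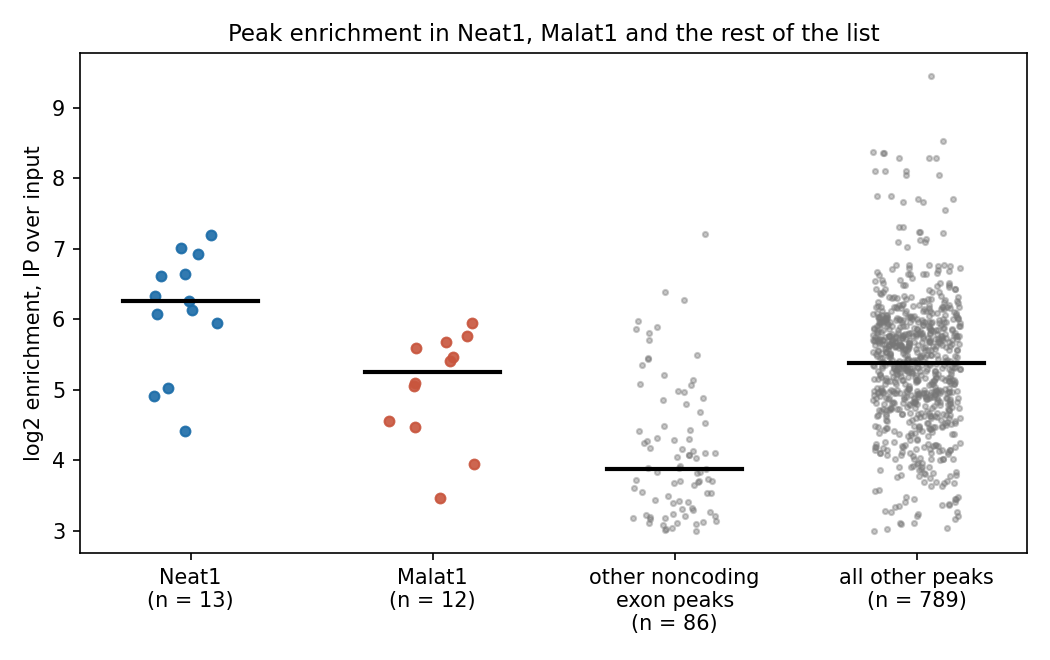
Points are single peaks, spread sideways at random for visibility, with log2 enrichment of IP over input on the y axis, and black lines are medians. Neat1 (median 6.25) lies above and Malat1 (5.25) close to the peaks outside noncoding exons (5.38), while the other noncoding exon peaks have a median of 3.88.

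By number of peaks, Neat1 ranked 4 and Malat1 shared rank 5 among the 459 genes of the list. Of the 8 genes with at least 10 peaks, Gm26917 had 32, Ski 25, Satb1 20, Pmepa1 12, Furin 10 and Hdac7 10. By number of joined sites, Neat1 with 12 ranked 3, behind Ski with 24 and Satb1 with 19, and Malat1 with 6 shared rank 10. Likeness in enrichment was measured as the difference in mean log2 enrichment among the 29 genes with at least 5 peaks, with 1 joint value per peak and no profile over samples. Neat1 ranked 4 by this mean. Its nearest neighbours were Rbpj, the DNA-binding factor of Notch signalling (6.18, 7 peaks), Furin, a proprotein convertase (5.98), and Zeb1, a zinc finger repressor (6.29, 8 peaks). Malat1 ranked 23, next to Rhoq, a small GTPase (4.91, 5 peaks), Arid1a, a subunit of the BAF chromatin remodelling complex (5.18, 7 peaks), and Mbd2, a reader of methylated DNA (5.22, 5 peaks). Each of these 6 means lay within 0.18 of that of Neat1 or Malat1, which is less than the SD over peaks of either RNA.

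Transcripts of the proteins of both nuclear bodies were also among the bound RNAs. Of 25 genes for paraspeckle proteins, 7 had a peak (28%), and of 28 genes for nuclear speckle proteins, 7 had one (25%), where 1.81% of all 21900 RefSeq protein-coding genes did. An RNA must be expressed to be bound, and expression was not measured, so its part in these shares was not tested. The lists were also chosen with earlier results of these data known, so these shares are descriptions and not independent support. Sfpq, a core paraspeckle protein that dimerises with NONO, had 1 intronic peak at a log2 enrichment of 5.63, whereas Nono and Pspc1 were among the 18 paraspeckle genes with none. Hnrnpf was highest in that list (7.23, 5 peaks), followed by Matr3 (6.32), Hnrnpk (6.20) and Hnrnph3 (5.70). All 4 encode RNA-binding proteins of the nucleus. Taf15 (4.94) and Tardbp (4.81), also nuclear RNA-binding proteins, had 1 coding exon peak each.

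Among speckle proteins, Srrm2, which with SON forms the speckle core, had 4 peaks up to 5.95, and Son had none. Srsf4 (6.53) and Srsf6 (4.02) encode SR splicing factors, and each had 1 peak near a splice site. Snrnp70, a U1 snRNP protein, reached 5.33, Luc7l2, a U1-associated factor, 5.25, Ddx39b, an RNA export helicase, 5.13, and Rbm25, a splicing regulator, 4.26. The median over genes of the highest peak was 5.70 for the 7 paraspeckle genes and 5.25 for the 7 speckle genes, against 5.36 over all 459 genes.

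Of 19 long noncoding RNAs that were listed as nuclear or chromatin RNAs, 7 had a peak. Where each RNA lies in these cells was not measured, so some of the 19 may not be mainly nuclear. These 7 include Neat1 and Malat1, which were chosen with earlier results of these data known, so their hits were fixed in advance. Beside them, 5 had a peak, namely Xist, Dleu2 (5.71), Airn (4.54), Gas5 (4.04) and Snhg1 (3.40). Among all 12731 RefSeq lncRNA genes, most of which may not be expressed in these cells, 0.118% had a peak. The list was also chosen with earlier results known, so its share is a description and not independent support. Beside Neat1 and Malat1, the highest value of these RNAs was the 5.97 of Xist. The other 5 had 4 peaks or fewer each.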

How the data were processed

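The authors trimmed reads with cutadapt 1.9.1, mapped them with STAR 2.4.0i on mm10 and handled them with SAMtools 1.4.1, per the submitters' processing notes, which give no order. Per the deposited settings, the replicates were joined by the irreproducible discovery rate after scaling each IP against its matching input, with 3 as the minimum for both the log2 fold and the −log10 p, and reads carried a random barcode of 10 nt. For the peak caller and the reproducibility threshold, nothing is stated in these sources. Per the file headers, the deposited list has a log2 enrichment and a −log10 p for each peak and no read counts, so depth per library is unknown. The other deposited file holds settings and no measurement.

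Peaks were assigned by the authors' gene names. Starts, counted from 0 in the file, are printed counted from 1. Peaks on the same strand up to 10 nt apart were joined. Joining and position functions were tested on simulated data. RefSeq (GRCm38.p6) gave gene classes and neighbours, and 423 of 459 symbols matched. Named genes were the members, genes at both loci, genes with at least 10 peaks, the 3 nearest in mean enrichment to each member among genes with at least 5 peaks, and members of the 3 lists with a peak; 1 gene at the loci is not reported here. The members and lists were chosen with earlier results of these data known. Alternatives were stricter minimums, other joining distances and other averages. Python 3.11.15, pandas 2.3.3 and SciPy 1.17.1 were used. No genome sequence was used, so no peak sequence is shown.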

Additional observations from a re-analysis of the deposited data

How the results depend on the processing

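Of 30 alternatives to 11 results, 29 left the value within 1.5 times the count, or within 1 SD over peaks of the mean. The difference between the Neat1 and Malat1 means is the only result with a direction, and 0 of its alternatives reversed it. Counts and single means cannot reverse. The exception was the number of Neat1 sites, which fell from 12 to 6 when peaks up to 200 nt apart were joined. Some alternatives could not move a value. For example, every Neat1 peak exceeded a log2 enrichment of 4 (lowest 4.41), and none was at the −log10 p ceiling. The higher mean of Neat1 ranged from 0.81 (minimum log2 enrichment raised to 4) to 1.26 (weighted by peak width) above Malat1. The count within the listed exons of the short form, 10, was added after seeing the data. Leaving out a replicate could not be run, because the list gives 1 value for both. No paired analysis was possible because no value belongs to a single replicate. Without depth, a stretch with no peak cannot be separated from low coverage.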
